A study of Mus musculus with 4 samples.

Results

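In all, 20132 genes were listed for 3 mouse lungs taken at E17.5, an embryonic day shortly before birth. The 8 described here encode enzymes and a regulator of fatty acid synthesis and modification and of phospholipid remodelling. They are Acly, Acaca, Fasn, Elovl1, Elovl6, Scd1, Lpcat1 and Srebf1. The 8 were chosen by symbol with earlier results of these data known, so their counts are no independent test. All 8 were found. The lungs were from C57BL/6 embryos titled WT, with no allele, transgene or treatment given, and the cells were live cells of digested lung after red cell lysis, read by single-cell RNA sequencing. The groups compared are classes of cells within these lungs (n = 3 lungs throughout), and the same lungs supply every class. Whether the lungs come from separate litters is not stated, so p-values speak of these 3 samples only. They measure how differences within a lung vary between the lungs, moderated by variance shared between genes. A sorted sample of E16.5, titled Tbx4-lineage+ and αSMA+, was not used here.

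Pulmonary surfactant is a film of phospholipid and protein that alveolar type 2 cells secrete to keep the air spaces open after birth, and its main lipid is a phosphatidylcholine that carries palmitate at both positions. Acly cleaves citrate to acetyl-CoA, Acaca carboxylates that to malonyl-CoA, and Fasn builds palmitate from both. Elovl6 lengthens palmitate to stearate, Elovl1 makes very long saturated chains, and Scd1 puts a double bond into palmitate and stearate. Lpcat1 attaches palmitate to lysophosphatidylcholine, the remodelling step that makes the disaturated lipid of surfactant. Srebf1 encodes the membrane-bound factor SREBP-1, which activates many genes of fatty acid synthesis once it is cut and enters the nucleus. In mouse type 2 cells Lyz1, a lysozyme, and Cxcl15, a chemokine also called lungkine, mark later stages, and their summed level was used to order the cells.

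Promoter windows were available for 7 of the 8 genes, all but Scd1, from RefSeq on build GRCm38.p6 (10 windows, from 250 bases before to 50 after an annotated start). The windows of 4 genes are printed because they stand for 3 patterns of level over the cells: Fasn and Lpcat1 were highest in type 2-like cells, Acly in macrophages, and Elovl6 outside the epithelium. Each reads 5′ to 3′ on the strand of its gene. Capitals mark the NF-Y box CCAAT, or ATTGG on the opposite strand, and the Sp1 box GGGCGG, or CCGCCC on the opposite strand. Where matches of the same box overlap, only the first is in capitals. Fasn lies at chr11:120824498-120824797, minus strand, Lpcat1 at chr13:73466981-73467280, plus strand, Acly at chr11:100527951-100528250, minus strand, and Elovl6 at chr3:129532136-129532435, plus strand.
Fasn: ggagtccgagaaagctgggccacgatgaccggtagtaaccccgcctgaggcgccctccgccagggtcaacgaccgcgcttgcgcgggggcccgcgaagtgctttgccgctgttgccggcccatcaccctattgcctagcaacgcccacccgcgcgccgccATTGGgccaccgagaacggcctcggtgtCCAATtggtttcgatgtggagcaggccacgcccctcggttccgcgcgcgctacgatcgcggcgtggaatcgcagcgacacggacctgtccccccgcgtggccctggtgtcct
Lpcat1: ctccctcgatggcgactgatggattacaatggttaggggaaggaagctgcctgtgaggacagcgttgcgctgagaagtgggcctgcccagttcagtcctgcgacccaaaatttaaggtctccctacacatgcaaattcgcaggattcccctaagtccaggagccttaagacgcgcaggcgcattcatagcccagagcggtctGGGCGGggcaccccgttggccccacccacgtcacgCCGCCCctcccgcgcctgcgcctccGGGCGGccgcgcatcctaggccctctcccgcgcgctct
Acly: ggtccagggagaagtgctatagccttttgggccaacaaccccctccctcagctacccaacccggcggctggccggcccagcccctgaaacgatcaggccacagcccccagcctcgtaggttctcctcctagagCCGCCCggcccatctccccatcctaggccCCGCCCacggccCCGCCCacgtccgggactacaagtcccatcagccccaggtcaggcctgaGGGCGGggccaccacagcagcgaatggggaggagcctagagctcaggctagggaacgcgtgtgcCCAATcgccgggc
Elovl6: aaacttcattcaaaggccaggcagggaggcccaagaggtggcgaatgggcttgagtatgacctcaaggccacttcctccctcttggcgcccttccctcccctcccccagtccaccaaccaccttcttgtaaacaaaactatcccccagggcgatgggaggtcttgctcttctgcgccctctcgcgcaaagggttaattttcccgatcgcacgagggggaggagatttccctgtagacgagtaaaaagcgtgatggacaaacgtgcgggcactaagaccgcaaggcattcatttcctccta

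Counted without overlap, the Fasn window held 2 NF-Y boxes and no Sp1 box, and the Lpcat1 window 3 Sp1 boxes and no NF-Y box. In the Acly window there were 1 NF-Y box and 4 Sp1 boxes, whereas the Elovl6 window held neither. Over all 32851 promoter windows of the table, 37.4% held an NF-Y box and 35.7% an Sp1 box. A sterol response element searched as TCACNCCAC on both strands was in none of the 10 windows of these genes and in 1.24% of all windows, and the E-box CACGTG was in none of the 10 and in 7.15% of all. In the Fasn window the marked CCAAT runs on into an overlapping ATTGG, as CCAATTGG, and this further match is not in the count. No other searched motifs overlapped in the printed windows. A match is only a run of letters in this window.

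The 3 lungs held 2682, 2140 and 2657 cells with median depths of 7979, 8493.5 and 7201 unique molecular identifiers (UMIs, each 1 counted transcript). Between 1.05% and 1.45% of cells per lung were called doublets and removed, and 19 to 22 barcodes per lung also occurred in another lung. The remaining 7390 cells formed 27 clusters, which were named from marker genes. Of the named classes 10 had at least 20 cells in every lung and were fitted. They include 1010 alveolar type 2-like cells (377, 260 and 373 per lung) and 740 alveolar type 1-like cells. The type 2-like name rests on a list of 12 markers that also helped to form the clusters: all 12 were raised in 2 of its 3 clusters and 11 of 12 in the other, a cluster whose leading genes include Ccnb1 and Cdc20 of mitosis. Alveolar type 1 was the second name for 2 of these 3 clusters, by the mean log2 difference of its markers from the other clusters. Type 2 and type 1 scored 3.07 and 1.61 in the cluster led by Sftpc, and 2.62 and 2.14 in that with mitosis genes. Conversely, type 2 was the second name for the type 1-like clusters led by Ager, Cldn18 and Hopx, but not for that led by Msln. Type 1 and type 2 scored 3.91 and 1.89, 3.42 and 0.56, and 2.36 and 0.81 in those led by Ager, Cldn18 and Hopx. The secretory airway-like cluster also carried ciliated markers, and the smooth muscle-like cluster had the fibroblast gene Tcf21 among its top genes. Levels are means over cells of counts per 1000000 (CPM), and neither the 8 genes nor the genes of the 4 lists described further on took part in clustering, whereas the cell markers, Lyz1 and Cxcl15 included, did. Droplet data hold some free RNA. The 12 type 2 markers summed to 1731 to 2647 CPM in endothelial cells, macrophages and matrix fibroblasts, against 81818 to 107058 CPM in type 2-like cells, and the part of free RNA in low levels of the 8 genes was not tested.

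Among the compartments of the lung, Lpcat1, Scd1, Fasn and Srebf1 had their highest levels in the epithelium. The filter of 10 CPM was passed by 6 of the 8 genes, of which Scd1 passed only through its epithelial level and is left out of the count. With limma on log2(CPM + 10), 4 of the other 5 were higher in epithelium than in the mean of endothelium, mesenchyme and immune cells, where 26.8% of the 4150 genes tested were called higher (adjusted p under 0.05). Acaca and Elovl6 were below the filter. The split of calls over all genes was 1111 higher and 2049 lower, or 1536 and 1606 with edgeR and its own scaling, and the median gene differed by −0.13, or by −0.02 with edgeR.

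Lpcat1 averaged 529, 459 and 553 CPM in the epithelium of lungs 1, 2 and 3, against 36.0 ± 2.28 CPM (SD) in the mean of the other compartments. All 3 epithelial values lay above every other compartment, with a log2 difference of 3.56 ± 0.06 (SE, limma adjusted p = 1.62e-26). Scd1 had 129, 68.2 and 152 CPM in epithelium and 5.20 ± 1.86 CPM elsewhere (log2 3.0 ± 0.09, limma adjusted p = 2.96e-20). Lung 2 was the lowest of the 3 for both genes, and still lay far above the other compartments. For Fasn the epithelial values were 102, 73.9 and 103 CPM, against 18.9 ± 2.15 CPM elsewhere (log2 1.83 ± 0.08, limma adjusted p = 2.35e-17).

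Srebf1, which encodes SREBP-1, stood at 48.7, 46.4 and 50.3 CPM in epithelium and at 17.9 ± 1.29 CPM elsewhere (log2 1.08 ± 0.07, limma adjusted p = 1.26e-13). The 2 remaining tested genes were spread over the lung. Acly differed by only 0.16 ± 0.05 (limma adjusted p = 0.00936), with means of 82.4 ± 7.09 in epithelium and 80.1 ± 4.70 CPM elsewhere whose lungs overlapped, and the call was lost without lung 3 (0.15, adjusted p = 0.0596). Elovl1 did not pass (0.06 ± 0.06, limma adjusted p = 0.304), with 73.6 ± 0.959 against 71.9 ± 2.77 CPM. It was called higher under median-of-ratios scaling (0.14) and with edgeR (0.19).

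Elovl6 had the opposite distribution. It averaged 0.557, 0.775 and 1.56 CPM in epithelium, from 21 UMIs in 1862 cells, against 14.8, 16.4 and 14.7 CPM in mesenchyme, from 241 UMIs in 1941 cells. The groups did not overlap, and with the filter left out the epithelium was lower than the mean of the other compartments (log2 −0.92 ± 0.07, limma adjusted p = 1.13e-06), where 30.2% of the 10070 genes so tested were called lower. Without the filter Acaca, the carboxylase, was higher in epithelium (0.59 ± 0.10, limma adjusted p = 0.000475, with 21.5% of genes called higher), with 17.47, 11.3 and 17.1 CPM against 6.93 ± 0.906 CPM elsewhere.

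**Figure D1:**
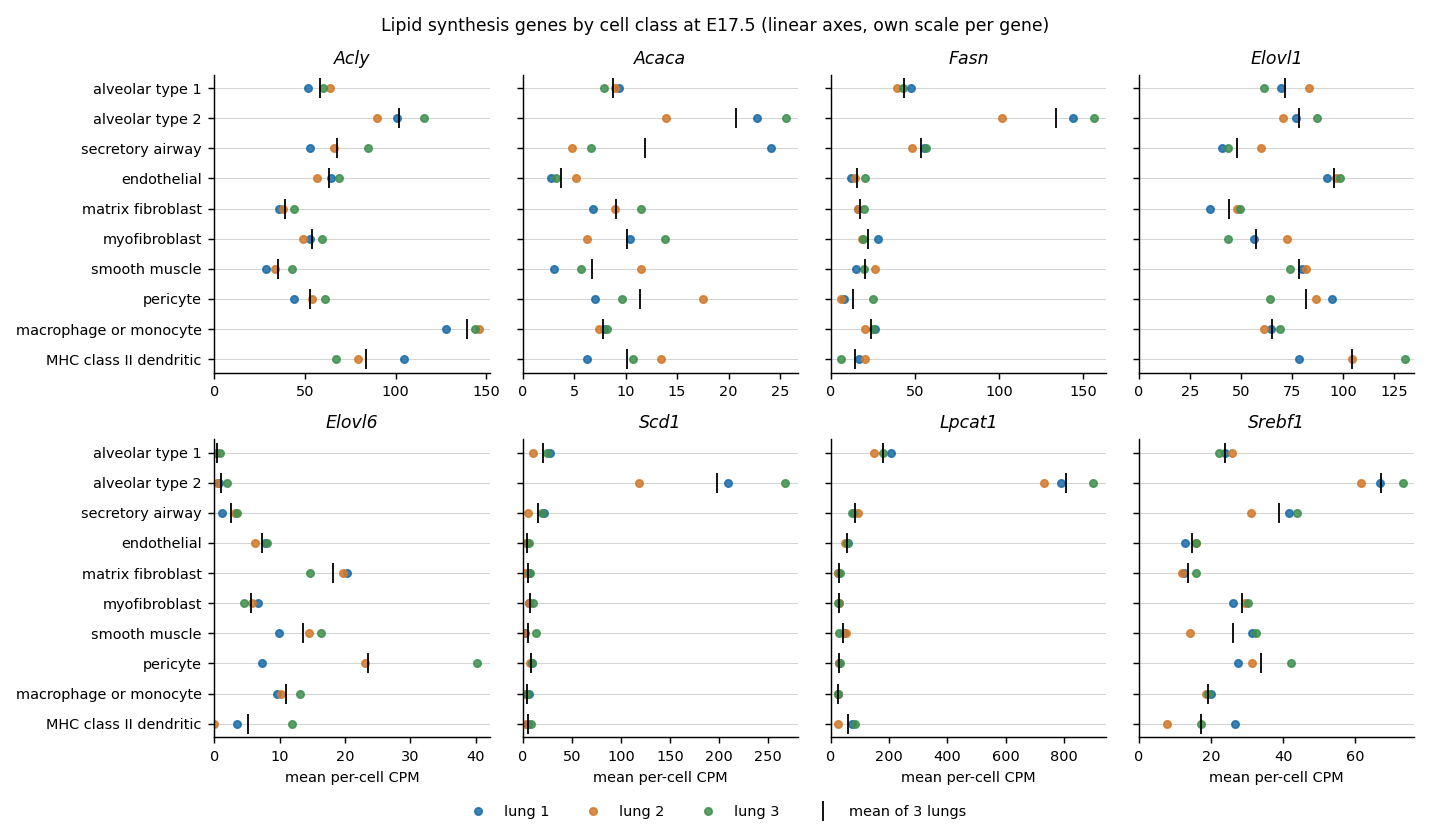
Mean per-cell CPM (x axis, linear, own range per gene) of each gene in the 10 fitted cell classes (y axis), with 1 point per lung and a bar at the mean of the 3 lungs. Fasn, Scd1, Lpcat1 and Srebf1 have their highest values in type 2-like cells, Acly in macrophages, and Elovl6 is near 0 in alveolar cells.

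By class, Fasn, Lpcat1 and Srebf1 were each higher in type 2-like cells than in all 9 other classes. So was Scd1, also without the filter, but Scd1 and Acaca passed the filter only through their type 2 level, since their mean over the 9 other classes lay below it, and their calls are no separate support. Among all 4186 genes tested, the share called higher in type 2-like cells was 5.97% against type 1-like, 9.46% against secretory and 14.8% against endothelial cells. It was 15.4% against matrix fibroblasts, 15.5% against myofibroblasts, 15.6% against pericytes and 16.8% against smooth muscle, and 28.8% against macrophages and 38.4% against MHC class II dendritic-like cells. Acly was higher than in 7 classes and lower than in 1, and Elovl1 higher than in 3 and lower than in none. Acaca was called above 6 classes, but above 3 with a pseudocount of 1 or without the filter. The Elovl1 count fell to 1 without lung 1 and to 1 without lung 3.

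At the carbon-supplying step, Acly had 128, 146 and 144 CPM in macrophages or monocytes, the top of its order, and 100.5, 89.6 and 115 CPM in type 2-like cells, which came next. The type 2 value was lower (log2 −0.42 ± 0.15, limma adjusted p = 0.0218, with 22.9% of genes called lower), with no overlap between lungs. The classes below type 2, from dendritic-like cells at 83.6 ± 19.2 to smooth muscle at 34.9 ± 7.35 CPM, formed a gradual series in which no pair of neighbours differed. Over all 45 pairs of classes, 13.0% to 65.8% of genes were called. Acaca, which commits acetyl-CoA to fatty acid, had 22.8, 13.9 and 25.6 CPM in type 2-like cells and 11.8 ± 10.6 CPM in secretory cells, the next class, where 14 UMIs gave 24.1, 4.83 and 6.60 CPM. The step from type 2-like to secretory cells was not called (0.58 ± 0.24, limma adjusted p = 0.0742), and lung 1 went the other way (−0.06). From secretory cells down to endothelium, at 3.72 ± 1.27 CPM, no neighbours in the order of Acaca differed either.

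Fasn, which makes palmitate, reached 144, 102 and 156 CPM in type 2-like cells. Secretory cells followed with 55.4, 48.0 and 56.6 CPM and type 1-like cells with 47.9, 39.6 and 43.1 CPM. These next 2 did not differ (0.24 ± 0.23, limma adjusted p = 0.458), whereas type 2-like cells lay above secretory cells (1.17 ± 0.23, limma adjusted p = 0.000231) and type 1-like cells above macrophages (0.67 ± 0.23, limma adjusted p = 0.0150, with 30.8% of genes called higher). Macrophages and the 6 classes below them, from 23.7 ± 3.11 down to 13.1 ± 10.6 CPM in pericytes, held no called step. The means of all 3 epithelial classes stood above those of the 7 other classes.

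The 2 elongases parted. Elovl1 was broad, with 104 ± 26.0 CPM in dendritic-like cells, 95.7 ± 3.25 in endothelium, 78.3 ± 8.37 in type 2-like cells and 44.1 ± 8.17 CPM in matrix fibroblasts, and no neighbouring classes in its order differed. Elovl6 was highest in pericytes at 7.33, 23.0 and 40.2 CPM and in matrix fibroblasts at 20.3, 19.7 and 14.7 CPM. The pericyte value rests on 39 UMIs and its lungs spread widely, while the matrix fibroblast value rests on 156 UMIs. In type 2-like cells it had 0.771, 0.358 and 1.87 CPM, from 11 UMIs in 1010 cells, and in type 1-like cells 4 UMIs in 740 cells. Without the filter, type 2-like cells were lower than matrix fibroblasts (−1.36 ± 0.24, limma adjusted p = 0.000194, with 12.5% of genes called lower) and lower than pericytes (−1.48 ± 0.24, limma adjusted p = 6.42e-05, with 14.8% called lower).

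Scd1, the desaturase, had the largest fold between type 2-like cells and the next class, with 209, 118 and 267 CPM there and 27.3, 10.3 and 24.6 CPM in type 1-like cells, the next class. The 8 classes below had means between 4.48 and 15.8 CPM, and the step from type 2 to type 1 was the only called step between neighbours. Lpcat1, the acyltransferase of surfactant remodelling, showed steps at each epithelial class. Type 2-like cells had 790, 732 and 901 CPM, type 1-like cells 207, 149 and 179 CPM and secretory cells 80.9, 94.2 and 72.3 CPM, and each differed from the next, with 13% of genes called higher in type 1-like than in secretory cells. Below them endothelium kept 54.8 ± 5.58 CPM and macrophages 23.9 ± 1.63 CPM.

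Srebf1 had 66.8, 61.7 and 73.2 CPM in type 2-like cells against 41.8, 31.2 and 44.0 CPM in secretory cells (0.66 ± 0.20, limma adjusted p = 0.0113). From secretory cells down to matrix fibroblasts at 13.5 ± 2.04 CPM no neighbours differed. Outside the epithelium its highest class was the pericytes with 27.4, 31.5 and 42.3 CPM, the class in which Elovl6 was also highest.

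**Figure D2:**
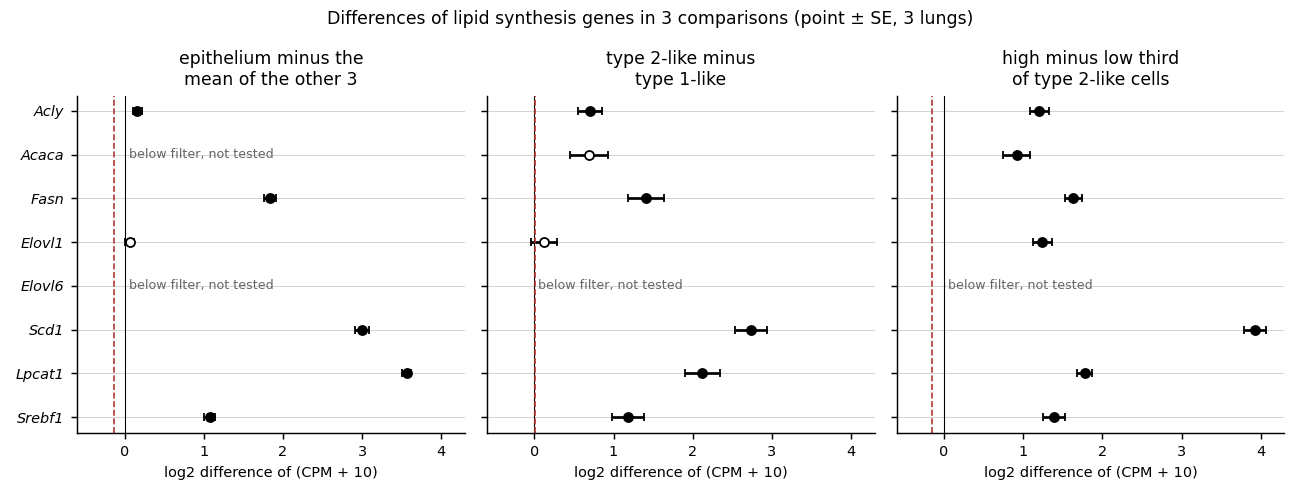
Log2 differences of CPM + 10 (x axis) for each gene (y axis) in 3 comparisons, with the standard error as bar, filled points for adjusted p under 0.05 and a dashed line at the median of all genes tested. Scd1 and Lpcat1 have the largest differences, and Elovl1 differs clearly only within type 2-like cells.

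Alveolar type 2 and type 1 cells arise from shared progenitors and line the same air spaces. Leaving out Scd1 and Acaca, which passed the filter only through type 2-like cells, 4 of 5 genes tested were higher in type 2-like cells, where 5.97% of the 4186 genes tested were called higher. The fold of the means was 9.53 for Scd1 (log2 2.74 ± 0.21, limma adjusted p = 3.36e-12), 4.53 for Lpcat1 (2.12 ± 0.22, adjusted p = 5.55e-09) and 3.08 for Fasn (1.41 ± 0.23, adjusted p = 2.58e-05). Srebf1 was 2.80-fold (1.18 ± 0.20, adjusted p = 2.92e-05) and Acly 1.74-fold higher (0.71 ± 0.15, adjusted p = 0.000986). In each of these 5 genes, Scd1 included, all 3 type 2 values lay above all 3 type 1 values.

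Acaca was 2.38-fold higher, also with no overlap, but missed the threshold (0.70 ± 0.24, limma adjusted p = 0.0510), and it passed under 5 alternatives, among them median-of-ratios scaling (0.71) and no lung block (adjusted p = 0.0482). Elovl1 stood at 77.0, 70.7 and 87.2 against 69.7, 83.5 and 61.4 CPM, which overlap (0.12 ± 0.17, limma adjusted p = 0.818). Its sign was negative without lung 3 (−0.04).

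The lungs were not alike in level. Lung 2 had the lowest type 2 value of all 8 genes, for example 118 CPM of Scd1 against 209 and 267. The share of type 2-like cells in the cluster led by Cxcl15 and Lyz1 was 38.2%, 29.6% and 42.1% in lungs 1, 2 and 3, so it was also lowest in lung 2, and its part in the lower levels was not tested. Within that cluster alone Scd1 still had 476, 343 and 553 CPM.

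To follow the genes along maturation, type 2-like cells of each lung were ranked by summed Lyz1 and Cxcl15 CPM and divided into 3 groups of equal size. The median of this sum was 154, 58.7 and 184 CPM in the lowest group of lungs 1, 2 and 3, and 4743, 3399 and 6140 CPM in the highest. All 7 tested genes were higher in the highest than in the lowest group, where 10.9% of the 3637 genes tested were called higher and 27.3% lower. The median gene differed by −0.15, and by −0.01 under median-of-ratios scaling, which also turned 398 higher and 992 lower calls into 608 and 592 while the 7 genes stayed called.

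Fasn rose from 61.5, 49.5 and 69.2 CPM in the lowest group, through 137, 96.3 and 168 CPM, to 234, 161 and 232 CPM in the highest. Every lung rose at each step, by 1.63 ± 0.10 on the log2 scale from lowest to highest (limma adjusted p = 7.75e-17). Acly rose from 57.4, 53.4 and 67.0 to 144, 147 and 155 CPM (1.20 ± 0.12, limma adjusted p = 2.05e-11), and the highest group, at 149 ± 5.70 CPM, was near the macrophage mean of 139 ± 9.95 CPM. Acaca rose from 10.9, 7.59 and 14.4 to 28.5, 20.4 and 41.3 CPM (0.92 ± 0.17, limma adjusted p = 2.66e-05). In lung 1 its middle group, at 28.9 CPM, was already as high as its highest.

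Scd1 changed most of the 8 genes. It went from 19.6, 10.0 and 32.6 CPM in the lowest group, through 127, 39.1 and 208 CPM, to 482, 308 and 562 CPM in the highest, a 21.7-fold difference of means (log2 3.93 ± 0.14, limma adjusted p = 1.69e-25). Its lowest group was at the level of type 1-like cells, at 20.7 ± 11.3 against 20.8 ± 9.13 CPM. Elovl1, which did not separate type 2 from type 1, rose from 39.5, 44.2 and 50.9 to 125, 109 and 125 CPM within type 2-like cells (1.24 ± 0.12, limma adjusted p = 1.68e-11). The type 1 mean of Elovl1, 71.5 ± 11.2 CPM, lay between those groups.

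Lpcat1 rose from 375, 228 and 485 CPM, through 866, 688 and 995 CPM, to 1131, 1285 and 1228 CPM (1.78 ± 0.10, limma adjusted p = 2.19e-19). Already in the lowest group all lungs were above the highest type 1 value of 207 CPM, unlike Scd1. Lung 2 went from the lowest of the 3 lungs in the lowest group to the highest of them in the highest group. Srebf1 rose from 35.6, 23.8 and 36.0 to 109, 95.4 and 90.6 CPM (1.38 ± 0.14, limma adjusted p = 4.12e-11), and in lung 3 its middle group had 93.3 CPM, slightly more than its highest. Elovl6 was not part of the rise, with 3, 3 and 5 UMIs in the lowest, middle and highest group, and no fold is given.

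**Figure D3:**
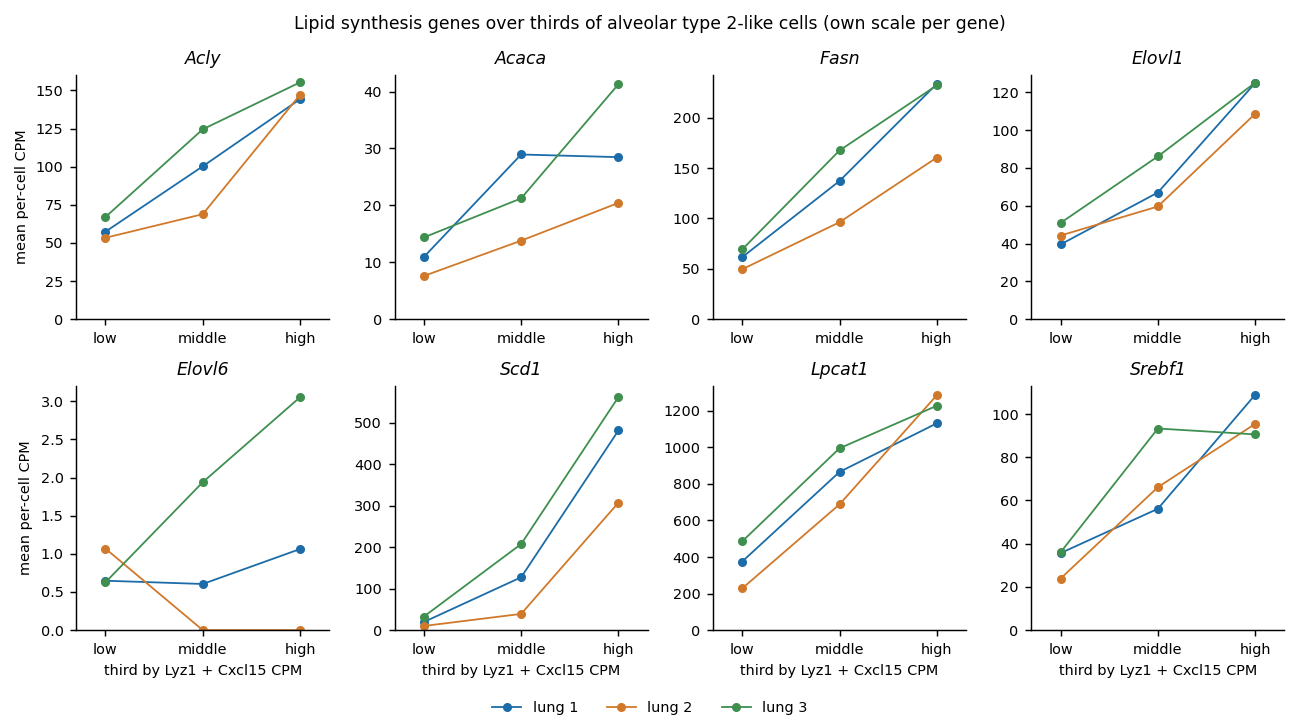
Mean per-cell CPM (y axis, own range per gene) in the lowest, middle and highest group of type 2-like cells ranked by Lyz1 plus Cxcl15 (x axis), with 1 line per lung. The 7 genes other than Elovl6 rise from lowest to highest in every lung, and Scd1 goes from 20.7 to 450.4 CPM on average, while the Elovl6 panel rests on 11 UMIs in all.

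Other cell markers moved along the same order. The 12 type 2 markers, which include Lyz1 and Cxcl15, summed to 32552 to 59173 CPM in the lowest and 136532 to 155865 CPM in the highest group. The 9 type 1 markers went the other way, from 3155 to 3993 CPM down to 1459 to 1618 CPM, with none at 0. The 6 mesenchyme markers also went down, from 1200 to 1328 CPM to 628 to 785 CPM, and the 6 secretory airway markers went up, from 124 to 158 CPM, with Scgb3a1 at 0, to 341 to 386 CPM. The part of these markers in the rise of the 7 genes was not tested. The 12 macrophage markers summed to 205 to 254 CPM in the lowest and 1196 to 1795 CPM in the highest group. Nearly all of this was Lyz2, a lysozyme of macrophages and type 2 cells, at 139 to 172 and 1056 to 1663 CPM. Ly6c2, another marker of this list, also rose in every lung, from 16.6, 2.87 and 13.7 to 87.3, 58.8 and 67.0 CPM. The 5 general immune markers stayed at 154 to 162 and 151 to 157 CPM, and C1qa at 7.05 to 17.3 and 5.44 to 19.3 CPM. With only the 650 type 2-like cells that had no UMI of C1qa, C1qb, Csf1r or Ptprc all 7 genes stayed called. Ly6c2 was not part of this screen, and the part of cells with Ly6c2 in the rise was not tested. Median depth was 12386, 12962 and 9218 UMIs in the lowest and 10826, 11339.5 and 10136.5 in the highest group, and all 7 stayed called when cells were ranked after thinning to 3000 UMIs.

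The 3 type 2-like clusters filled the order unequally. The cluster led by Cxcl15 and Lyz1 (378 cells) held 0.592% of the lowest and 85.1% of the highest group, and the cluster led by Sftpc and Sftpb (529 cells) held 77.8% and 13.4%. The mitosis-led cluster (103 cells) held 21.6% and 1.49%, and without it all 7 genes stayed called. Between the Sftpc-led and the Cxcl15-led cluster Scd1 went from 46.2 ± 20.9 to 457 ± 106 CPM, Fasn from 86.7 ± 12.3 to 221 ± 36.0 CPM and Lpcat1 from 614 ± 92.3 to 1206 ± 98.1 CPM.

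Ranking was repeated within each of these 2 clusters, a choice made after the clusters were seen. Within the Sftpc-led cluster 6 of the 7 genes were higher in the highest group, where 3.84% of genes were called higher. They were Scd1 (1.76), Lpcat1 (1.67), Srebf1 (1.20), Fasn (0.80), Acly (0.77) and Elovl1 (0.54), while Acaca (0.35, limma adjusted p = 0.480) was not called. Within the Cxcl15-led cluster 1 of the 7, Scd1 (1.02), was higher, where 0.948% of genes were called higher. There Fasn (−0.01), Acaca (−0.04), Lpcat1 (0.06) and Srebf1 (0.11) were near 0 and Elovl1 (0.34) and Acly (0.40) did not pass. Ranked by Lyz1 alone, of which 61.5% of type 2-like cells had no UMI so that most ranks are ties, 4 genes were called (2.42% of all genes higher), and Acly (0.23), Acaca (0.30) and Srebf1 (0.37) were not.

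**Figure D4:**
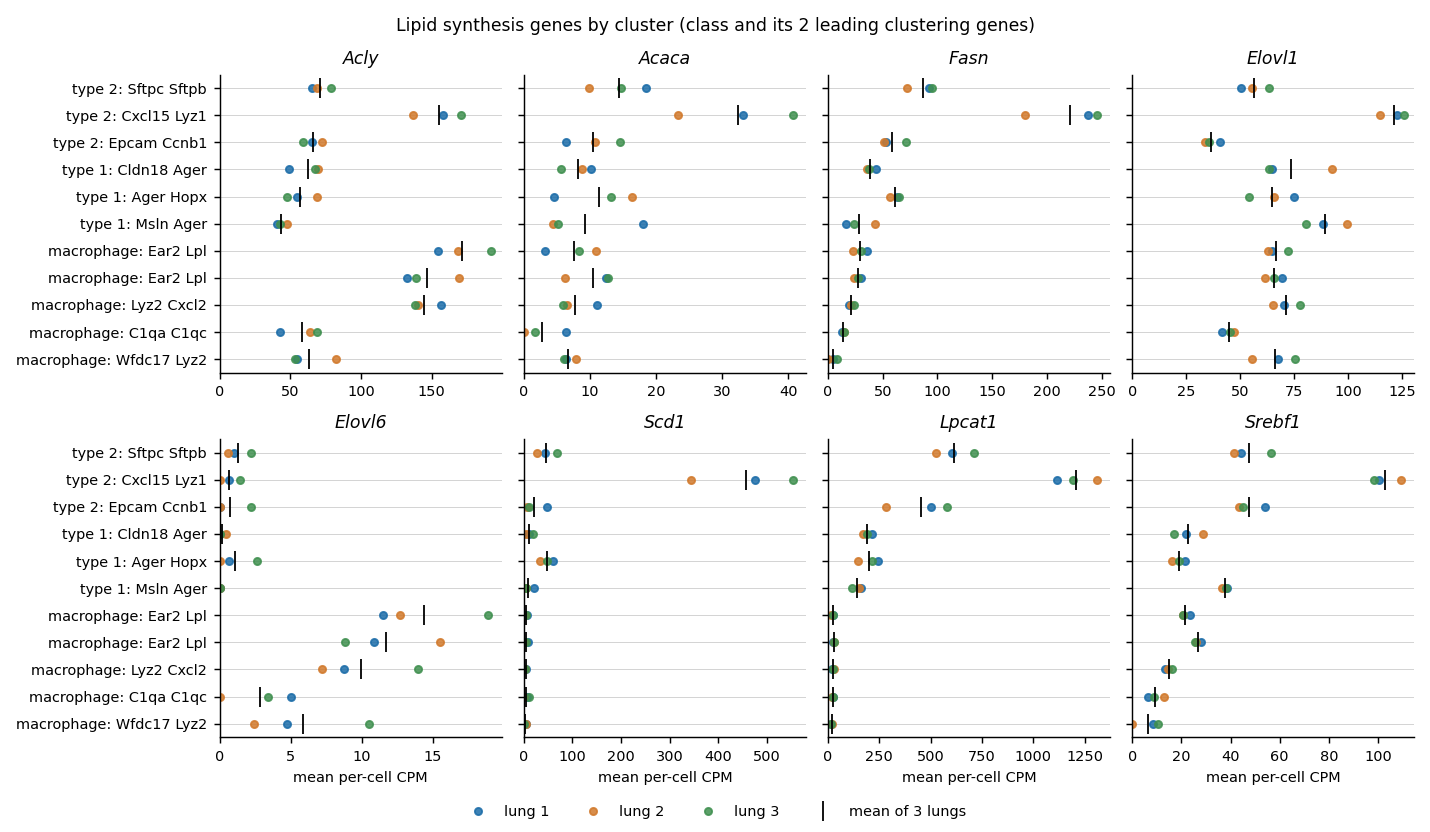
Mean per-cell CPM (x axis, linear, own range per gene) in clusters of at least 100 cells of the type 2-like, type 1-like and macrophage classes (y axis, named by 2 leading clustering genes), with 1 point per lung and a bar at the mean. For the 7 genes other than Elovl6, the type 2-like cluster led by Cxcl15 and Lyz1 lies above the other 2 type 2-like clusters in the mean, and Acly is split among macrophage clusters.

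Acly was also uneven among macrophages. The 2 clusters led by Ear2 and Lpl had 172 ± 19.1 and 147 ± 19.7 CPM, and the cluster led by Lyz2 and Cxcl2 had 145 ± 10.1 CPM. The cluster led by the complement genes C1qa and C1qc had 58.4 ± 13.9 CPM and that led by Wfdc17 had 63.5 ± 16.6 CPM, close to the type 1-like mean of 58.4 ± 6.04 CPM. The 3 high clusters did not overlap the 2 low ones in any lung. Elovl6 followed a like order there, with 14.4 ± 3.98 and 11.7 ± 3.43 CPM in the Ear2-led clusters and 2.83 ± 2.58 CPM in the C1qa-led one, from 65, 58 and 6 UMIs. These are descriptions of clusters, with no test.

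In the other contrasts between compartments, Acly was higher in immune cells than in the mean of the rest (1.01 ± 0.05, limma adjusted p = 2.82e-15) and Elovl1 higher in endothelium (0.51 ± 0.06, limma adjusted p = 6.96e-09), where 28.3% and 52.7% of genes were called higher. In endothelium the median gene differed by 0.17, and by −0.05 under median-of-ratios scaling, which moved 2188 higher and 1096 lower calls to 1355 and 1745 while Elovl1 stayed called at 0.25. In immune cells the median gene differed by −0.25, and by 0.02 under that scaling, which moved 1175 higher and 2364 lower calls to 1815 and 1716. There Elovl1 was −0.14 but turned to 0.18 under median-of-ratios scaling and to 0.15 with edgeR, and Fasn (−0.33) and Srebf1 (−0.31) lost their calls under both, with 57% of all genes called lower.

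Genes that work beside these 8 were read from 4 lists, also chosen with earlier results of these data known. Of 19 tested partners in fatty acid synthesis 7 were higher and 1 lower in the highest group of type 2-like cells, against 10.9% and 27.3% of all genes, or 11 and 1 when scaled by median of ratios. Their median log2 difference was 0.24, against −0.15 over all genes. Acsl4, which activates arachidonate and other long chains, had 110.0 ± 8.68 against 20.8 ± 11.8 CPM (2.05 ± 0.15, limma adjusted p = 3.96e-15). Mid1ip1, which helps acetyl-CoA carboxylase to polymerise, rose by 1.58, and Scd2, a second desaturase, by 1.21, from 233 ± 28.8 to 556 ± 118 CPM. Fads3, of the fatty acid desaturase family, was lower in the highest group (−0.91) and lower in type 2-like than type 1-like cells (−1.21), although the epithelium as a whole was above the other compartments (2.59).

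Against type 1-like cells 5 of 19 partners were higher and 2 lower, with 5.97% and 7.02% of all genes so called. Acsl4 (1.92), Me1 (1.44), the malic enzyme that supplies NADPH, and Mid1ip1 (1.03) were higher, and the elongase Elovl5 (−0.61) was the second lower one beside Fads3. In epithelium 12 of 18 partners were higher and 2 lower, with 26.8% and 49.4% of all genes so called, and Scd2 (2.11) and Me1 (1.71) came after Fads3 at the top. Me1 had 40.9 CPM in epithelium and 6.35 CPM elsewhere, so it passed the filter only through its epithelial level. Its call is no separate support, and the list counts were not screened for such genes. Hsd17b12 (−0.40), a reductase of the elongation cycle, and the desaturase Fads1 (−0.38) were lower there.

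SREBP is held in the endoplasmic reticulum by Insig proteins and carried to the Golgi by Scap for cutting. Of 7 tested genes of this regulation 4 were higher and 2 lower in the highest group, against 10.9% and 27.3% of all genes, so the share of lower genes was near that of all genes. Insig1, itself a known SREBP target, had 216 ± 12.2 against 60.8 ± 23.1 CPM (1.72 ± 0.13, limma adjusted p = 3.64e-15), and Srebf2, which encodes the sterol-directed SREBP-2, rose by 0.68. Cebpa, a transcription factor of type 2 cell and fat cell differentiation, had 516 ± 15.6 against 117 ± 43.3 CPM (2.11 ± 0.10, limma adjusted p = 7.13e-21). It also separated type 2-like from type 1-like cells (2.95) and epithelium from the rest (2.26).

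The 2 lower genes, the protease gene Mbtps1 (−0.36) and Cebpb (−0.24), lost their calls under median-of-ratios scaling (−0.21 and −0.06). Against type 1-like cells Insig1 (0.87) was the other of 2 called genes of 10, both higher, with 5.97% of all genes called higher. In epithelium 5 of 10 were higher and 3 lower, against 26.8% and 49.4% of all genes, among them Insig1 (0.98) and Insig2 (0.62) above and Nr1h3 (−0.90), the liver X receptor alpha gene, Cebpb (−0.87) and Scap (−0.37) below.

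The list of phospholipid synthesis and remodelling was mixed. Of 22 tested genes 7 were higher and 3 lower in the highest group, against 10.9% and 27.3% of all genes, or 11 and 2 when scaled by median of ratios, and the median was 0.14. Pgs1, which starts the mitochondrial route to cardiolipin, had 131 ± 6.09 against 50.8 ± 4.89 CPM (1.21 ± 0.12, limma adjusted p = 9.87e-12). Lpin2 (0.96), a phosphatidate phosphatase, and Cds1 (0.85), a CDP-diacylglycerol synthase, also rose. The acyltransferase genes Mboat2 (−0.74) and Agpat4 (−0.62) fell, and Prdx6 (−0.21), a peroxiredoxin with phospholipase activity, was lower but was not called under median-of-ratios scaling (−0.03).

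Against type 1-like cells this list had 2 higher and 4 lower of 23, against 5.97% and 7.02% of all genes, so the share of higher genes was near that of all genes. Lpin1 (0.83) and Lpin2 (0.79) were higher, and Mboat2 (−1.22), Prdx6 (−1.06) and the cholinephosphotransferase Chpt1 (−0.68) lower. In epithelium 12 of 22 were higher and 6 lower, against 26.8% and 49.4% of all genes, led by Chpt1 (1.55), Agpat2 (1.31) and Pgs1 (1.20) above and Agpat4 (−1.72), Agpat5 (−1.06) and the lysosomal phospholipase Pla2g15 (−0.73) below. So Chpt1 was an epithelial gene here with its higher level in type 1-like cells, 88.2 ± 6.02 against 51.5 ± 4.46 CPM.

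Sterol synthesis and uptake, which SREBP-2 governs, had the highest share of genes called higher among the 4 lists along the order. Of 19 tested genes 16 were higher and none lower, against 10.9% and 27.3% of all genes, with a median of 1.01, or 17 and none under median-of-ratios scaling. Hmgcs1, the HMG-CoA synthase, had 174 ± 5.13 against 51.8 ± 2.67 CPM (1.58 ± 0.11, limma adjusted p = 2.65e-15). Fdps (1.52), the farnesyl diphosphate synthase, and Msmo1 (1.52), a sterol oxidase, followed.

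Against type 1-like cells 5 of 18 sterol genes were higher and 1 lower, with 5.97% and 7.02% of all genes so called. Acat2 (0.89), an acetoacetyl-CoA thiolase, Msmo1 (0.85) and Hmgcs1 (0.72) were higher, and the sterol carrier Stard4 (−0.76) was lower. In epithelium 10 of 18 were higher and 2 lower, against 26.8% and 49.4% of all genes, with Fdft1 (0.86), Fdps (0.80) and Acat2 (0.68) above and Dhcr7 (−0.29) and Cyp51 (−0.24) below.

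**Figure D5:**
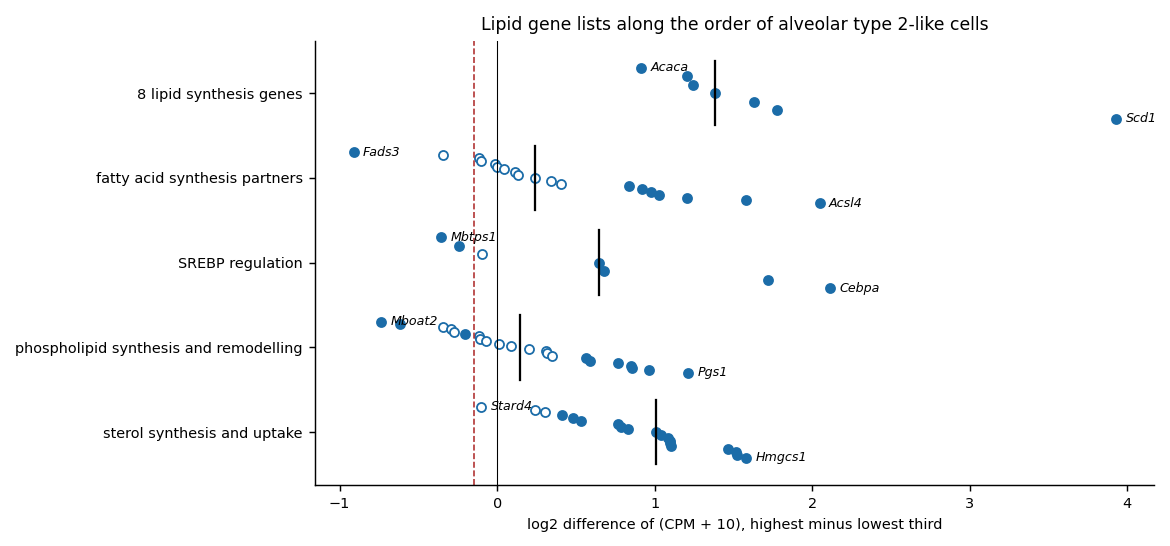
Log2 difference of CPM + 10 between the highest and lowest group of type 2-like cells (x axis) for each tested gene of the 8 and of the 4 lists (y axis), filled where adjusted p was under 0.05, with a bar at each list's median and a dashed line at the median of all genes, −0.15. Among the sterol genes 16 of 19 are filled and all of these lie above 0.

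The profile of the 8 genes over cells was summarised as the mean of their scaled log2 levels over 30 class-by-lung means. The genes most like it among those held out of clustering were Pla2g1b, a secreted phospholipase (Pearson r = 0.86), Bex2 (0.84), Tmem243 (0.81), the transferrin receptor Tfrc (0.81) and Ccz1 (0.80). Pla2g1b had 184 CPM in type 2-like and 29.3 CPM in type 1-like cells, and Bex2 had 412 and 26.4 CPM. Each of the 8 was also set against the mean that includes it. Scd1 (0.92), Lpcat1 (0.84), Fasn (0.80) and Srebf1 (0.79) were closest to it, Acaca (0.68) and Acly (0.52) followed, and Elovl1 (0.18) and Elovl6 (−0.36) were farthest. The 30 points share classes and libraries, so these values describe likeness only.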

How the data were processed

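Expression was read in 3 E17.5 lungs. The deposited signal values are normalized expression per gene and cell, and the submitters' processing notes name Seurat 3.0.0 beside Cell Ranger 1.3.1 without a role. The sources used here give no genome build for the authors' counting. The extract protocol speaks of lysis plates, so droplets are inferred from the barcodes and Cell Ranger. Each cell's values summed to its file's median total, and 100% were whole multiples of 1 UMI (tolerance 0.01), which gave back the UMI counts (20347458 to 23996253 per lung). CPM is the deposited value divided by the column sum, times 1000000.

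Called doublets were removed. Genes were divided by a seeded hash: 10040, with all markers, formed the clusters (2000 variable genes, 30 principal components, 15 neighbours, Leiden resolution 1), and 10092, with the 8 genes and all list genes, were tested. Clusters were named from fixed marker lists and no label gives a cell type. Mean per-cell CPM per class and lung was fitted as log2(CPM + 10) with limma 3.58.1 (R 4.3.3), lung as block, a trend in the prior variance, genes of at least 10 CPM, two-sided, Benjamini-Hochberg within each contrast, called under 0.05. Fold changes on this scale understate low genes. Classes of the same lung deviated together (mean correlations of 0.07 to 0.31), and the lung pairs them because they are the same animal. Prior and residual degrees of freedom were 18.7 and 6 for compartments, 14.4 and 18 for classes and 37.1 and 4 for maturation. The p-values between compartments and along maturation therefore draw mainly on variance shared between genes. The test was tried on simulated data. Counts recovered from the deposited values were also tested with edgeR 4.0.16 as an alternative. Of 22 alternatives 3 were chosen after seeing the data. The 8 genes and the lists were chosen with earlier results of these data known. Named list genes are the up to 3 called genes with the largest difference per list, direction and contrast, and the 5 genes most like the mean profile. Software was Python 3.11.15, scanpy 1.11.5, leidenalg 0.10.2 and matplotlib 3.10.9. Not listed in the lungs were Cebpd, Gpat3 and Ptpmt1 of the lists.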

Additional observations from a re-analysis of the deposited data

How the results depend on the processing

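Over 13 alternatives to each class and compartment contrast and 21 to the maturation contrast, 75 of 78 values of the 8 genes in the epithelium contrast, 80 of 86 between type 2-like and type 1-like cells and 137 of 147 in maturation kept direction and side of the threshold. In the immune contrast 70 of 78 did. For the list genes named it was 284 of 286, 182 of 208 and 310 of 376.

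Values that turned sign were Elovl1 in immune cells with median-of-ratios scaling (0.18) and edgeR (0.15), Elovl1 between type 2-like and type 1-like cells without lung 3 (−0.0434; 0.286 without lung 2), and Agpat4 along maturation ranked by Lyz1 (0.10). Within the Cxcl15-led cluster Fasn (−0.0149), Acaca (−0.0391), Cds1 (−0.00523) and Fads3 (0.17) turned along maturation. The cause was not tested.

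Genes higher in epithelium rose from 1111 to 2168 without the filter, which tests more genes. Between type 2-like and type 1-like cells 250 higher and 294 lower genes became 623 and 738 with edgeR, and lower ones 190 with a pseudocount of 1. Leaving out 1 lung gave 148 to 166 higher and 179 to 215 lower. Along maturation 398 higher and 992 lower genes became 608 and 592 under median-of-ratios scaling, 645 and 639 with edgeR, 88 and 178 ranked by Lyz1, 33 and 57 in the Cxcl15-led cluster and 139 and 223 in the Sftpc-led cluster. Of the 8 genes, 7 called became 4 ranked by Lyz1 and 1 in the Cxcl15-led cluster.

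Without the lung as replicate block 1072 genes were higher in epithelium, and Acaca passed between type 2-like and type 1-like cells (0.70, limma adjusted p = 0.0482). Of the other calls given here, Cebpb, Mbtps1 and Prdx6 along maturation were lost without the block. Depth limits Elovl6 in the epithelium (21 UMIs) and Acaca in small classes.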

Other observations

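Type 1-like cells were not uniform for these genes. The cluster led by Ager, Hopx and Lmo7 (225 cells) had 59.0, 33.5 and 48.6 CPM of Scd1 in lungs 1, 2 and 3, against 10.8 ± 7.41 CPM in the cluster led by Cldn18 (328 cells) and 9.57 ± 9.56 CPM in that led by Msln (152 cells). All 3 values of the Ager-led cluster lay above those of these 2 other clusters. Fasn followed with 61.5 ± 4.56, 38.7 ± 4.22 and 28.0 ± 13.7 CPM. A further type 1-like cluster, led by Hopx and Clic3 (35 cells), is left out of these orders. It had no Scd1 UMI and 6 Fasn UMIs (44.8 ± 62.1 CPM). The first cluster also had more Cxcl15, 306 ± 144 against 57.4 ± 16.6 and 43.3 ± 16.46 CPM, and the part of type 2 RNA in its levels was not tested. Srebf1 had another order, with 37.8 ± 1.04 CPM in the Msln-led cluster and 19.0 ± 2.61 CPM in the Ager-led one, and so did Elovl1 with 89.5 ± 9.60 and 64.9 ± 10.4 CPM. No test was run between clusters.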
